A study of Mus musculus and Homo sapiens with 33 samples.

Results

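The 10 genes described here encode chemokines and cytokines, the secreted proteins with which a tumour cell calls or repels immune cells: CCL5, CXCL10, CXCL11, CCL3, CX3CL1, CCL20, CXCL8, CXCL1, IL6 and IL15. They were chosen by name, with earlier results of these data known. All 10 were found once each among the 20347 genes of the authors' deposited table for the human lung cancer line H358 (non-small-cell). Among the 2509 rows of the table for LLC1, a mouse Lewis lung carcinoma line, 2 of the 9 mouse counterparts were listed, Ccl20 and Il15, and mice have no gene for CXCL8. The LLC1 table holds rows that the authors had called changed, so the other counterparts were not analysed here in that line.

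H358 libraries came from cells overexpressing cEMSY, a circular RNA of the EMSY gene, or from cells labelled WT with EV, read here as an empty vector, with 3 libraries in each group. LLC1 libraries came from cells overexpressing cEmsy or from WT cells with EV, again 3 and 3. All were total RNA depleted of ribosomal RNA. The labels do not say how the overexpression was made, whether a line was a pool or 1 clone, how long after transfer RNA was taken, or whether the 3 libraries of a group were separate cultures, so p-values measure only the spread between these libraries, which may be technical. A further 21 LLC1 libraries, WT cells kept for 48 h with DMSO or 1 of 6 drug treatments, were measured for circular RNAs.

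Chemokines are small proteins that guide leukocytes by binding G-protein-coupled receptors on them, and their families are named for the spacing of cysteines near the start of the mature protein. CXCL10 and CXCL11 bind CXCR3 on activated T cells and natural killer cells and are classic products of interferon signalling, CCL5 and CCL3 draw T cells and monocytes, and CXCL8 and CXCL1 belong to the ELR group, named for an amino acid motif, which attracts neutrophils through CXCR2. IL6 signals through the shared receptor chain gp130, and IL15, which sustains natural killer cells and memory CD8 T cells, is presented to them by its receptor chain on the producing cell.

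Of the 10 genes, 7 rose and 2 fell in H358 with cEMSY overexpression, by the authors' adjusted p under 0.05, and CCL20 did not pass. The same rule called 32.4% of all 19154 genes with an adjusted p-value, 15.6% higher and 16.8% lower, so a call by itself is common in this comparison. The median log2 fold change over the 10 was 3.21, against 0.03 over all genes tested. Because the 10 were chosen with earlier results of these data known, comparing them with all genes may partly restate that choice. The rises were in the chemokines for T cells, natural killer cells and monocytes and in both interleukins, and the falls were in both neutrophil attractants. Values are the authors' log2 fold changes with their standard errors, because levels of single H358 libraries and their depth were not used here, and no left-out library could be tried.

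The deposited mean and fold change of a gene together imply a level for each group, if the 6 libraries weigh equally. These implied levels are arithmetic on the authors' deposited table, in units of its normalised signal, with no error of their own, and they compare groups for 1 gene but not genes with each other, since they are not per length. A bulk level does not tell more cells making a transcript from more transcript per cell.

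CCL5, which recruits T cells, had an implied 6609 units with cEMSY overexpression, against 44.9 units with EV. Its log2 fold change was 7.20 ± 0.15 (SE) in the authors' deposited table, a 147-fold rise with a 95% interval of 120 to 180, and its adjusted p is listed as 0. By the ratio of fold change to standard error it stood in place 2 from the top of all 19154 genes. By fold change it stood in place 20 of the called genes, and its neighbours there were ONECUT3, just above at 7.25 ± 1.33, and RAET1L, just below at 7.14 ± 1.07 (SE, the authors' deposited table). The errors of these neighbours are several times that of CCL5.

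CXCL10 had an implied 173 units with cEMSY overexpression, against 1.37 units with EV, a log2 fold change of 6.98 ± 0.77 (SE; adjusted p = 2.57e-18 in the authors' deposited table). CXCL11, which binds the same receptor, had 208 units with cEMSY overexpression, against 2.40 units with EV, a log2 fold change of 6.43 ± 0.59 (SE; adjusted p = 6.90e-26 in the authors' deposited table). With EV both genes had only a few units. Their 95% intervals overlap, at 5.48 to 8.48 for CXCL10 and 5.28 to 7.59 for CXCL11 on the log2 scale. Just above CXCL10 by fold change among called genes was CALHM5 at 7.05 ± 1.27, and just below it the noncoding LINC02197 at 6.88 ± 1.37 (SE, the authors' deposited table).

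CCL3, a monocyte and T cell attractant, had the largest fold change of the 10, 8.44 ± 1.25 on the log2 scale (SE; adjusted p = 2.13e-10 in the authors' deposited table). Its implied level was 65.7 units with cEMSY overexpression, against 0.19 units with EV. That EV level is shared: 39 of the 2997 genes called higher have an implied EV level that rounds to 0.19 units, among them 4 chemokine genes, CCL3, CCL3L3, CCL4L2 and CCL17. A fold change that rests on such a shared minimum depends on how the model treated a group with almost no signal, so the size of the CCL3 fold is not read here, only its direction and the level with cEMSY overexpression. CCL3L3 is a near-identical copy of CCL3, and the rule by which reads were split over the pair is not given in the sources used here.

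CX3CL1, a chemokine that is made as a membrane-bound protein and shed by proteases, had an implied 78.2 units with cEMSY overexpression, against 4.81 units with EV, a log2 fold change of 4.02 ± 0.54 (SE; adjusted p = 1.21e-12 in the authors' deposited table). CCL20, the ligand of CCR6 on Th17 cells and immature dendritic cells, had 292 units with cEMSY overexpression, against 251 units with EV. Its log2 fold change of 0.22 ± 0.18 (SE; adjusted p = 0.409 in the authors' deposited table) did not pass, and its 95% interval of -0.14 to 0.58 leaves room for a rise of up to 1.49-fold.

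CXCL8 had an implied 2030 units with cEMSY overexpression, against 4513 units with EV, and fell by 1.15 on the log2 scale (SE 0.08; adjusted p = 3.29e-41 in the authors' deposited table). CXCL1 had 3324 units with cEMSY overexpression, against 6220 units with EV, and fell by 0.90 (SE 0.08; adjusted p = 1.03e-25 in the authors' deposited table). The authors' own mark of significance equals an adjusted p under 0.05 together with an absolute log2 fold change of 1 or more in all 20347 rows, so CXCL8 carries it and CXCL1 does not. By that stricter mark 8 of the 10 genes were called, against 9.47% of all genes tested.

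IL6 had an implied 260 units with cEMSY overexpression, against 49.1 units with EV, a log2 fold change of 2.40 ± 0.22 (SE; adjusted p = 2.28e-26 in the authors' deposited table). IL15 had 781 units with cEMSY overexpression, against 357 units with EV, a log2 fold change of 1.13 ± 0.11 (SE; adjusted p = 2.25e-22 in the authors' deposited table). IL15 was the smallest of the 7 rises, a 2.19-fold change with a 95% interval of 1.88 to 2.55, and was exceeded in fold change by 11.3% of the genes tested.

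**Figure D1:**
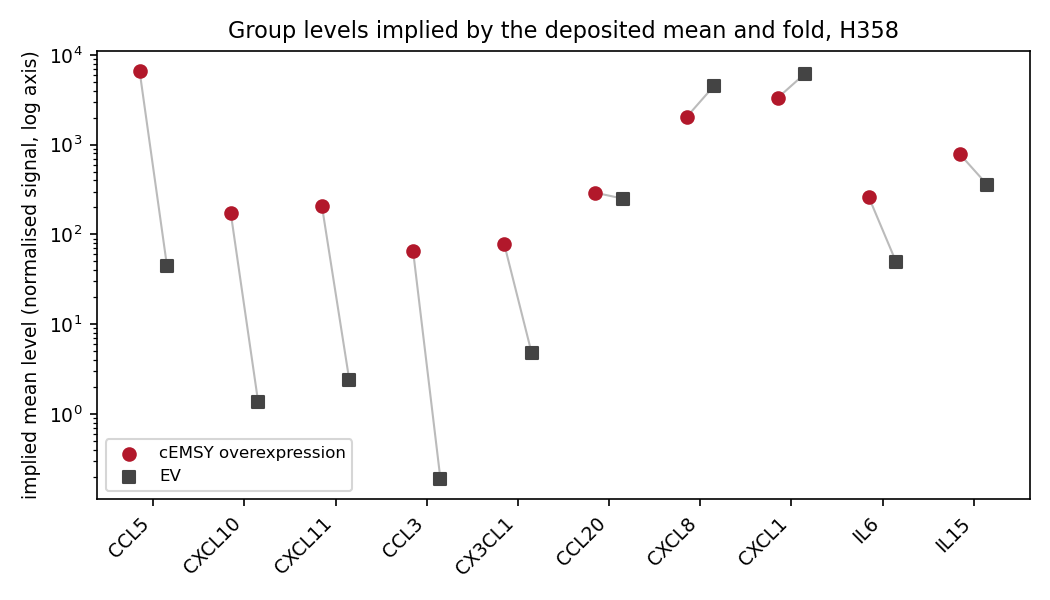
Mean level of each gene in H358 implied by the authors' deposited mean and fold change, on a log axis in units of normalised signal, with cEMSY overexpression as circles and EV as squares. CCL5 moves furthest among genes with an EV level above 1 unit, at 6609 units with cEMSY overexpression and 44.9 units with EV, while CXCL8 and CXCL1 are lower with cEMSY overexpression.

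**Figure D2:**
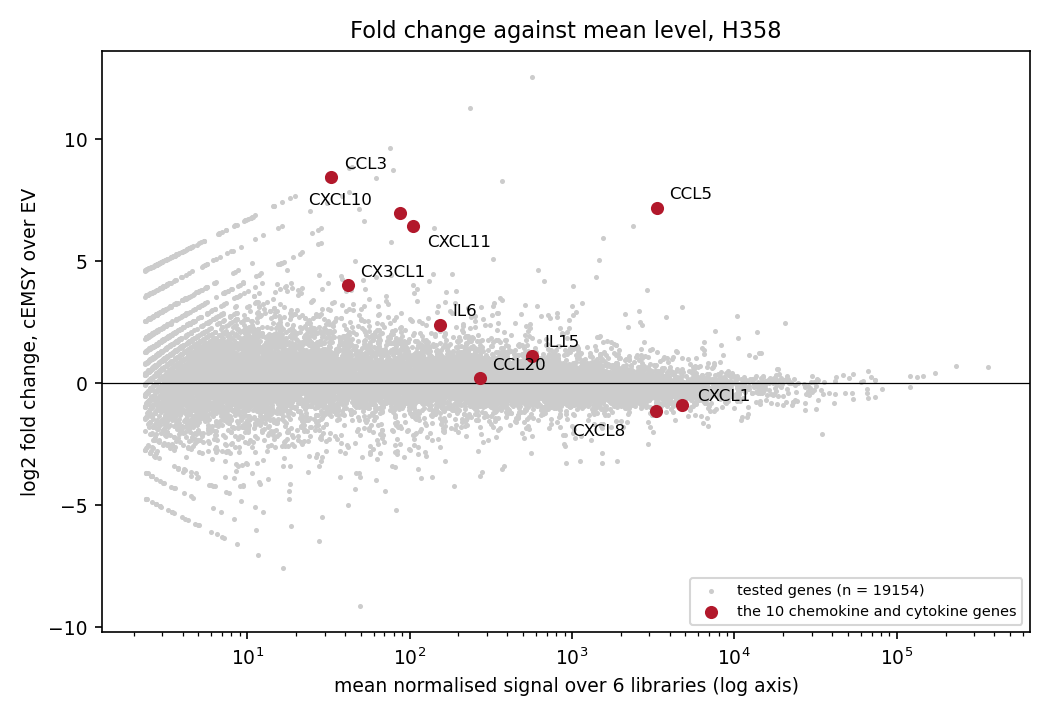
Log2 fold change in H358, cEMSY overexpression over EV, against mean normalised signal over the 6 libraries on a log axis, for the 19154 genes with an adjusted p-value (grey) and the 10 genes (red). CCL5 combines a mean of 3327 units with a log2 fold change of 7.20, while CXCL10, CXCL11, CCL3 and CX3CL1 lie at means of 105 units or less.

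The wider chemokine family was measured in the same table. Of 48 chemokine genes 21 had a row in the H358 table, 10 rose and 7 fell (adjusted p under 0.05, 32.4% of all genes called), and the median log2 fold change was 0.92. The family was listed with earlier results of these data known, and the 10 genes above are part of it. Among the CC chemokines 7 of 11 rose and 1 fell. Those that rose beside CCL3 and CCL5 were CCL4L2 (7.69 ± 1.29), CCL17, a ligand of CCR4 (6.79 ± 1.42), CCL3L3 (6.69 ± 1.40), CCL4, a monocyte and T cell attractant (6.46 ± 1.33), and CCL22, the other CCR4 ligand (4.91 ± 1.06, all log2 with SE in the authors' deposited table). Each of these 5 had a mean of 19.6 units or less over the 6 libraries. CCL4L2, CCL17 and CCL3L3 have the same implied EV level of 0.19 units as CCL3, so the sizes of their folds are not read here either. CCL3 and CCL3L3 are near-identical copies that may share reads, so the 7 rises may not all be separate. CCL2, which draws monocytes through CCR2, went the other way and fell by 1.55 (SE 0.09; adjusted p = 4.99e-71 in the authors' deposited table).

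All 6 neutrophil-attracting ELR chemokines with a row fell, of 7 listed, against 16.8% of all genes called lower. Beside CXCL8 and CXCL1, PPBP fell by 4.21 (SE 1.35; adjusted p = 0.00746), CXCL3 fell by 1.39 (SE 0.12; adjusted p = 1.37e-28), CXCL5 fell by 0.86 (SE 0.06; adjusted p = 2.79e-44) and CXCL2 fell by 0.54 (SE 0.12; adjusted p = 5.45e-05, all log2 in the authors' deposited table). The mean over the 6 libraries was 18278 units for CXCL5 and 6.34 units for PPBP. CXCL1, CXCL2 and CXCL3 are similar in sequence, and how reads were divided between them is not known. When a log2 fold change of 1 or more was also asked for, 3 of the 6 remained called. CXCL16 did not pass, at 0.30 ± 0.20 (SE; adjusted p = 0.276 in the authors' deposited table).

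**Figure D3:**
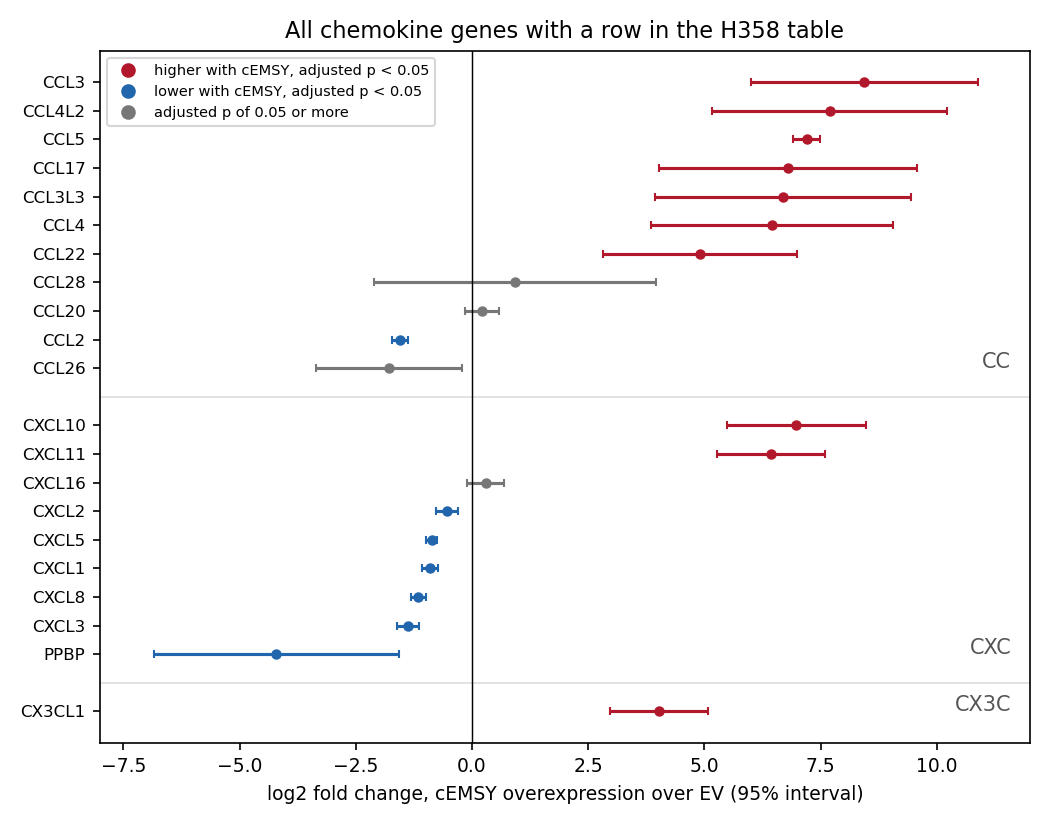
Log2 fold change with 95% interval of the 21 chemokine genes with a row in the authors' deposited H358 table, cEMSY overexpression over EV, grouped as CC, CXC and CX3C. Most CC genes and the 2 CXCR3 ligands with a row, of 3 listed, lie above 4, and the 6 ELR genes from CXCL2 to PPBP lie below 0.

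Of 22 receptors for chemokines 8 had a row, with means of 70.4 units or less, 0 rose and 2 fell (28.6% of the 7 with an adjusted p, close to the 32.4% of all genes; 1 was higher at an unadjusted p under 0.05). ACKR3, a scavenging receptor that takes up CXCL11 and CXCL12, fell by 4.40 (SE 0.42; adjusted p = 9.70e-24) and CXCR5 fell by 3.30 (SE 0.99; adjusted p = 0.00412, both in the authors' deposited table). Of the receptor chains for IL6, IL15 and related cytokines 4 of 7 rose and 1 fell, against 15.6% of all genes called higher and 16.8% lower, and 1 of the 5 calls reached an absolute log2 fold change of 1. IL2RG, the common gamma chain, rose by 1.98 ± 0.64, IL11RA by 0.96 ± 0.32, OSMR by 0.79 ± 0.07 and IL6ST, which encodes gp130, by 0.35 ± 0.10, and LIFR fell by 0.47 (SE 0.14). IL6R and IL15RA, the private chains of the 2 interleukins, had log2 fold changes of 0.19 ± 0.16 and -0.31 ± 0.30 without passing (SE, the authors' deposited table; adjusted p = 0.395 and 0.494).

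Of 42 interleukin genes 16 had a row, 2 rose, which were IL6 and IL15, and 3 fell. IL34 fell by 3.84 (SE 1.51; adjusted p = 0.0361), IL32 fell by 1.80 (SE 0.16; adjusted p = 1.57e-28) and IL11, a gp130 cytokine like IL6, fell by 1.67 (SE 0.17; adjusted p = 4.24e-21, all in the authors' deposited table). IL34 had a mean of only 4.99 units over the 6 libraries and did not pass an adjusted p of 0.01. The interleukins called were 33.3% of the 15 with an adjusted p, close to the 32.4% of all genes. Of 18 other cytokine genes 14 had a row, 3 rose and 2 fell (35.7% called, also close to that share). TNFSF10, which encodes the death ligand TRAIL, rose by 3.03 ± 0.50, TNFSF14 by 2.02 ± 0.74 and LIF by 0.32 ± 0.07, whereas CSF2, which encodes GM-CSF, fell by 2.57 (SE 0.73) and CLCF1 by 1.02 (SE 0.13, all in the authors' deposited table). TNF, a common inducer of CXCL8 and CCL20, was at -0.24 ± 0.64 (SE; adjusted p = 0.837 in the authors' deposited table).

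Among transcription factors known to act on these genes 8 of 21 rose and 5 fell, against 15.6% of all genes called higher and 16.8% lower. With an absolute log2 fold change of 1 or more also asked for, 2 of these 13 calls remained. STAT2 and IRF9, which carry the interferon signal to the nucleus, rose by 0.71 ± 0.16 and 0.68 ± 0.16, and IRF3 rose by 0.32 ± 0.10 (log2, SE, the authors' deposited table). CEBPD and CEBPB, activators of IL6, rose by 1.19 ± 0.14 and 0.76 ± 0.10, FOS by 0.94 ± 0.34 and ATF3 by 0.71 ± 0.26 (log2, SE, the authors' deposited table). The NF-kB genes NFKB1, RELB and NFKB2 fell by 0.73 (SE 0.11), 0.63 (SE 0.12) and 0.39 (SE 0.11), JUN fell by 0.75 (SE 0.08) and FOSL1 fell by 2.26 (SE 0.11, the authors' deposited table). RELA, at -0.09 ± 0.10 (SE; adjusted p = 0.532 in the authors' deposited table), did not pass.

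Of 9 genes for RNA-binding proteins that speed or slow the decay of cytokine messages 2 rose, ZFP36L2 by 0.77 ± 0.10 and ZFP36 by 0.70 ± 0.13, and 4 fell, ZFP36L1 by 1.02 (SE 0.06), HNRNPD by 0.42 (SE 0.06), KHSRP by 0.30 (SE 0.08) and ELAVL1 by 0.25 (SE 0.08, log2, the authors' deposited table). These calls compare with 15.6% of all genes higher and 16.8% lower, and 1 of the 6 reached an absolute log2 fold change of 1. Of 5 protease genes linked to chemokine processing or shedding, CTSC rose by 0.58 ± 0.07, DPP4, whose product trims CXCL10, fell by 1.39 (SE 0.56; adjusted p = 0.0426) and ADAM17 fell by 0.24 (SE 0.08, log2, the authors' deposited table). These 3 calls also compare with 15.6% of all genes higher and 16.8% lower. Only DPP4 reached an absolute log2 fold change of 1, and it did not pass an adjusted p of 0.01. ADAM10, the main constitutive sheddase of CX3CL1, was at -0.06 ± 0.11 without passing (SE; adjusted p = 0.718 in the authors' deposited table).

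Epithelial markers had mixed levels in H358: KRT8, KRT18 and KRT7 had means of 41881, 38482 and 31920 units and CDH1 had 1028. KRT19 had 118, EPCAM 40.7 and NAPSA 16.1, and NKX2-1 had no row. These levels do not settle the H358 label. Of these 8 markers 7 had a row, 0 rose and 5 fell, against 16.8% of all genes called lower: KRT19 fell by 3.91 (SE 0.31), KRT7 fell by 1.05 (SE 0.06), KRT8 by 0.43 (SE 0.06), KRT18 by 0.38 (SE 0.07) and CDH1 by 0.37 (SE 0.09, log2, the authors' deposited table). Of 14 leukocyte markers 4 had a row and 0 rose (0 also at an unadjusted p under 0.05). CD68, also a lysosomal gene, fell by 0.75 (SE 0.13, log2, the authors' deposited table). The share called was 33.3% of the 3 with an adjusted p, close to the 32.4% of all genes. CD14 and ITGAM had means of 86.2 and 56.5 units and did not pass, and CD79A had a mean of 2.1 units and no adjusted p. The other 10, among them PTPRC, CD3D, CD3E and NKG7, had no row. Whether leukocytes bear on CCL5 or CCL3 was not tested. Of 7 endothelial markers 3 had a row with means of 2.75 units or less and CDH5 fell by 4.96 (SE 1.89), and of 8 fibroblast markers 5 had a row and 0 passed, with 1 lower at an unadjusted p under 0.05 (the authors' deposited table). The gene-level value of EMSY rose by 3.84 ± 0.07 (log2, SE, the authors' deposited table). It does not separate the overexpressed circular RNA from the linear message of the gene.

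In LLC1 the 2 listed members moved in opposite directions with cEmsy overexpression. LLC1 values are the authors' per-gene signal, whose unit is not named. Il15 (chromosome 8, 82331632 to 82403222, minus strand, mm10) stood at 2.35, 2.60 and 2.69 in cEmsy libraries, against 0.698, 0.583 and 0.682 in EV libraries. The groups did not overlap, and the lowest cEmsy library was above the highest EV library by more than the whole range within either group. The means were 2.55 ± 0.180 with cEmsy overexpression and 0.655 ± 0.0627 with EV (SD, n = 3 each), a rise of 1.10 ± 0.08 on the log2(value + 1) scale (SE; limma, adjusted p = 5.95e-07), and of 1.81 with a pseudocount of 0.1 in place of 1.

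Ccl20 (chromosome 1, 83116766 to 83119167, plus strand, mm10) stood at 0.139, 0.0907 and 0.187 in cEmsy libraries, against 7.91, 7.82 and 9.25 in EV libraries. Again the groups did not overlap, and every cEmsy library was close to 0. The means were 0.139 ± 0.0479 with cEmsy overexpression and 8.33 ± 0.797 with EV (SD, n = 3 each), and Ccl20 fell by 3.03 on the log2(value + 1) scale (SE 0.09; limma, adjusted p = 2.68e-09), with a log2 difference of -5.16 at a pseudocount of 0.1. Of the 2111 rows tested 2110 passed (100%), 47.3% higher and 52.6% lower, and the groups did not overlap in 99.8%, so a call in this table mainly restates the authors' choice of rows. The level of a gene without a row cannot be read as unchanged.

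The start of mouse Ccl20 is shown because it is the listed gene that lost nearly all its signal and because its promoter is known as a target of NF-kB. Of the 9 mouse counterparts 6 had an entry in the RefSeq promoter table (GRCm38.p6, the build mm10 names), and of the pair listed in LLC1 only Ccl20 had one. The stretch runs from 250 bases before to 50 after the start of transcription, chr1:83116516-83116815, plus strand, with the kB-like run in capitals:
Ccl20 promoter: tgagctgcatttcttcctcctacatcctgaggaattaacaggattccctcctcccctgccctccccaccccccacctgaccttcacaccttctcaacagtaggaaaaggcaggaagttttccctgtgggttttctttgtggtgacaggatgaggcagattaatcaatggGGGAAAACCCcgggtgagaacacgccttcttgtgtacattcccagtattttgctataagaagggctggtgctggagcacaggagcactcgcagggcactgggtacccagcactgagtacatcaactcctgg
The search on both strands used GGGNNNNCC for kB-like sites, GAAANNGAA for the interferon-stimulated response element and TGANTCA for AP-1. The kB-like pattern matched 2 times in overlapping frames, starting at bases -81 and -80 relative to the start, both within the capitals, and 43.8% of all 32851 promoters in the table hold such a match. The other 2 patterns had no match in this window, where 8.56% and 7.81% of all promoters have one.

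**Figure D4:**
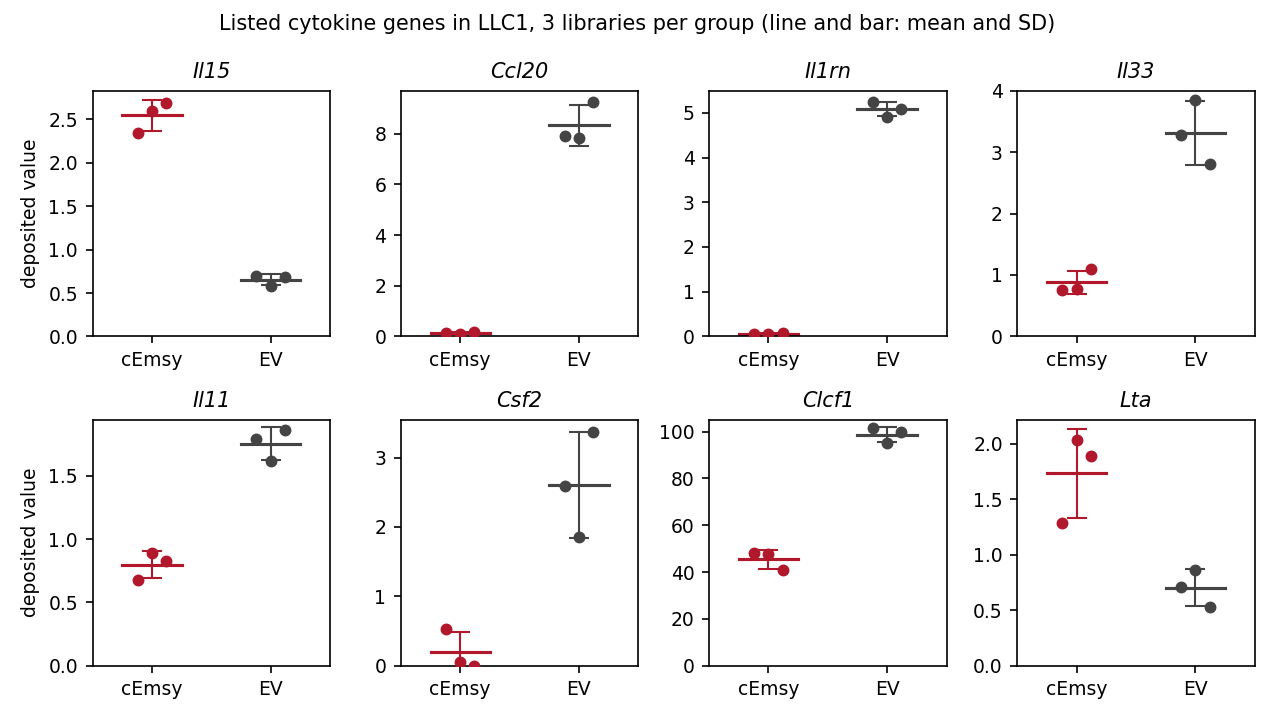
Deposited signal of 8 listed cytokine genes in single LLC1 libraries, cEmsy overexpression left of EV, each axis from 0, with the mean as a line and the SD as a bar (n = 3 per group). Il15 and Lta are higher with cEmsy overexpression, and Ccl20, Il1rn and Csf2 are near 0 there.

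Beside Ccl20 no other of 39 mouse chemokine genes had a row, nor did any of 22 chemokine receptors. Of the interleukins 5 of 39 had a row. Il1rn, which encodes the antagonist of the IL-1 receptor, stood at 0.0435, 0.0464 and 0.0680 in cEmsy libraries, against 5.23, 4.92 and 5.09 in EV libraries, and fell by 2.53 (SE 0.08; limma, adjusted p = 2.68e-09; log2 difference -5.09 with a pseudocount of 0.1). Il33, an alarmin of epithelial cells, averaged 0.879 ± 0.190 with cEmsy overexpression and 3.31 ± 0.524 with EV (SD, n = 3 each) and fell by 1.19 (SE 0.11; limma, adjusted p = 3.54e-06; -1.80 with the lower pseudocount). Il11 averaged 0.797 ± 0.106 with cEmsy overexpression and 1.75 ± 0.128 with EV (SD, n = 3 each) and fell by 0.62 (SE 0.08; limma, adjusted p = 4.72e-05; -1.05 with the lower pseudocount). Il7 was under the limit on low values, at 0.303 ± 0.0841 with cEmsy overexpression and 0.0403 ± 0.0289 with EV (SD, n = 3 each).

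Of 18 other cytokine genes 3 had a row. Csf2 stood at 0.531, 0.0560 and 0 in cEmsy libraries, against 2.59, 1.86 and 3.37 in EV libraries, and fell by 1.60 (SE 0.19; limma, adjusted p = 1.52e-05; log2 difference -3.62 with a pseudocount of 0.1). Clcf1, a gp130 cytokine of the IL6 family, averaged 45.5 ± 4.12 with cEmsy overexpression and 98.7 ± 3.25 with EV (SD, n = 3 each) and fell by 1.11 (SE 0.08; limma, adjusted p = 3.54e-07). Lta, which encodes lymphotoxin alpha, averaged 1.74 ± 0.401 with cEmsy overexpression and 0.703 ± 0.167 with EV (SD, n = 3 each) and rose by 0.68 ± 0.12 (SE; limma, adjusted p = 0.000379), or by 1.19 with the lower pseudocount. Of the transcription factors 5 of 21 were listed: Irf7 rose by 1.38 ± 0.09 and Stat2 by 0.93 ± 0.09, and Relb fell by 0.95 (SE 0.10) and Fosl1 fell by 1.20 (SE 0.10), while Irf5 was under the limit on low values, at 0.814 ± 0.0524 with cEmsy overexpression and 0.123 ± 0.0625 with EV (SD, n = 3 each).

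Some cell type markers, among them those of the line's own epithelial list, were also listed for cEmsy overexpression in LLC1. Of the 2111 rows tested 2110 passed, 47.3% higher and 52.6% lower, so a call alone says little about a marker. Of 14 leukocyte markers 2 were listed and both rose, the macrophage-related Cd68 by 1.28 ± 0.13 and Lyz2 by 0.64 ± 0.08 (SE), and Krt7 and Napsa of the epithelial list rose by 1.56 ± 0.08 and 0.77 ± 0.15 (SE, limma on the log2(value + 1) scale); with a pseudocount of 0.1 the rises of Lyz2, Krt7 and Napsa were 1.19, 2.84 and 1.22. Of the fibroblast list Col1a2 alone was listed, at 0.0740 ± 0.0395 with cEmsy overexpression and 0.221 ± 0.0572 with EV (SD, n = 3 each), and the endothelial list had no row. The summed level of these 2 leukocyte markers was 7.29 to 9.88 in cEmsy libraries, against 2.77 to 3.33 in EV libraries, and Ptprc, Csf1r and Adgre1, which define such cells, were not analysed here. Whether these markers bear on Il15 or Ccl20 was not tested.

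Across the 6 LLC1 libraries the rows most like Ccl20 by Pearson correlation were Pola1 (0.9998), an unannotated locus and Defb23 (both 0.9997), and those most like Il15 were an unannotated locus (0.9994), Nectin4 (0.9989) and Bglap (0.9987). The 6 points share 2 groups, and 565 and 211 of the 2110 other rows exceeded 0.99, so these values mostly restate the difference between groups.

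Set side by side, IL15 rose in both lines, by 1.10 ± 0.08 in LLC1 on the log2(value + 1) scale and by 1.13 ± 0.11 in H358 in the authors' deposited table (SE). Their difference, LLC1 minus H358, was -0.03 with a 95% interval of -0.30 to 0.24, which depends on the pseudocount: with 0.1 in place of 1 it was 0.68 (0.31 to 1.05). CCL20 fell by 3.03 in LLC1 (SE 0.09) and did not pass in H358 (0.22 ± 0.18, SE, the authors' deposited table). The difference of -3.25 (95% interval -3.65 to -2.84) passed a normal test adjusted over the 1124 genes in both tables (limma errors for LLC1, adjusted p = 1.97e-54). So did 78.1% of those genes. The test takes errors from 3 libraries per group as exact, so the size of its p-value is not read here. With the lower pseudocount the difference was -5.37, where 85.9% of the genes passed. With both pseudocounts and 1 sign 76.9% of the genes passed. Species, line and measure all differ between the tables, so a difference between the lines cannot be told apart from one of species or measure.

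In the drug panel none of the 472 listed circular RNAs lay over any of the 9 members found in the mouse annotation, so the panel gives no value for them.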

How the data were processed

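Total RNA libraries of LLC1 and H358 were sequenced after depletion of ribosomal RNA, per the labels' protocols; the submitters' processing notes name mm10, hg19, STAR, featureCounts, FastQC and MultiQC without roles. For H358 the authors deposited per gene, and per the file headers, a mean signal, a log2 fold change, score columns for the error and test statistic, and a p-value before and after adjustment. The statistic equalled fold over error within 0.001 in all 20347 rows. The 1193 genes lacking an adjusted p got no call. For LLC1 and for the drug panel the authors deposited a signal of unnamed unit for rows they had called changed; depth is unknown. The controls, called NC in both overexpression tables, were taken as the EV groups.

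LLC1 rows with a mean of 0.5 or more (2111) were tested with limma 3.58.1 in R 4.3.3 on log2(value + 1), with a mean-variance trend and Benjamini-Hochberg adjustment over all rows. In simulated data the fit called 10 of 1911 unchanged rows, 44 of 50 rows changed by 0.5 and 48 of 50 changed by 3 (log2). Most simulated rows were unchanged, unlike the rows listed here, so the simulation does not give the error rate in these data. Folds on this scale understate changes of low genes. H358 calls use the authors' adjusted p under 0.05. The design foresaw count tests, which these files do not allow. The difference between lines, a normal test on both standard errors, was added after the data were seen. Members and lists were chosen with earlier results of these data known. All members, up to 5 higher and 5 lower called genes per wider list and every listed LLC1 row are named; CCL4, CCL22, CXCL2, IRF9 and IRF3 and genes given as not passing were added after their values were seen.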

Additional observations from a re-analysis of the deposited data

Results flagged for a closer look

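The response to overexpression of the circular RNA differed between the lines for several genes, by the difference of log2 fold changes (LLC1 minus H358) adjusted over 1124 genes and passing with both pseudocounts. Of all 1124 genes 76.9% met the same condition, so such a difference is the rule between these tables, and species, line and measure differ with it. CCL20 differed by -3.25, having fallen in LLC1 without passing in H358, and IL33 by -2.85 (95% interval -4.99 to -0.71), also having fallen in LLC1 without passing in H358. IL11 differed by 1.05, or 0.61 (95% interval 0.15 to 1.08) with a pseudocount of 0.1, and FOSL1 by 1.06, both having fallen in each line and further in H358. IRF7 differed by 1.11, having risen in LLC1 without passing in H358. CD68 differed by 2.03 and KRT7 by 2.61, both having risen in LLC1 and fallen in H358. LLC1 folds carry a pseudocount and H358 folds do not, so the sizes are not on 1 scale.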

How the results depend on the processing

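In LLC1 the 10 alternatives left Ccl20 lower, at -5.16 to -2.83, and Il15 higher, at 1.07 to 1.81, each with an adjusted p under 0.05 (limma; highest 1.76e-07 and 1.30e-05); the widest values came from a pseudocount of 0.1, which also moved Il1rn to -5.09, Csf2 to -3.62 and 6 other wider-list genes by over 1.5 times, all in the same direction. With single libraries left out Ccl20 ranged from -3.07 to -2.96 and Il15 from 1.07 to 1.14. Centring libraries on their medians moved the median difference of all rows from -0.58 to -0.37 and gave -2.83 for Ccl20 and 1.30 for Il15; 8 wider-list rows were higher and 8 lower with and without it. In H358, 9 members passed under 3 of the 4 alternatives, and 8 when a log2 fold change of 1 or more was also required, which CXCL1 did not reach at -0.90. That requirement left 33 of the 63 calls over all wider lists: CXC chemokines from 8 to 5, ELR chemokines from 6 to 3, receptor chains from 5 to 1, proteases from 3 to 1, decay factors from 6 to 1, transcription factors from 13 to 2, epithelial markers from 5 to 2 and leukocyte markers from 1 to 0. Genes with a mean signal of 10 or more gave 1 chemokine receptor in place of 2, and 0 endothelial markers in place of 1. An adjusted p of 0.01 also gave 0 endothelial markers, but left 2 chemokine receptors called. No paired analysis was possible because the LLC1 control columns are not tied to numbered EV samples and H358 has no values per library here. The unnamed unit of the LLC1 values and the unknown depth limit what a value near 0 means.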

Other observations

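A single circular RNA of the drug panel lay over a gene of the wider lists, Nfkb1, which encodes a subunit of NF-kB (chromosome 3, 135655500 to 135669339, mm10). Its deposited signal was 2892, 2271 and 2470 after oxaliplatin, 2439, 2334 and 1497 after dactinomycin, and 0, 0 and 3267 after (R)-crizotinib with cisplatin. It was listed at 0 in all libraries of doxorubicin, bortezomib, pemetrexed with cisplatin and DMSO.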
